A study of Mus musculus with 8 samples.

Results

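The genes described here code for the nuclear pore complex and for the receptors that carry cargo through it. They were taken from the array annotation as every gene whose symbol begins with Nup and a digit, together with a fixed set of other pore proteins (Nupl1, Nupl2, Seh1l, Sec13, Aaas, Rae1, Ndc1, Pom121), importins and transportins (Kpna1, Kpna3, Kpna4, Kpna6, Kpnb1, Tnpo1, Tnpo3, Ipo5, Ipo7), exportins (Xpo1, Xpo4, Xpo5, Xpot, Cse1l) and the GTPase Ran. This gave 42 of the 18193 genes with a symbol on the array, read by 116 probe sets. A probe set is a group of short probes for 1 transcript, and a gene is represented by whichever of its probe sets was brightest on average across the 8 arrays. The basket protein Tpr was also sought, but no probe set carried that symbol alone.

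Transcript levels came from GeneChip arrays hybridised with RNA of neural stem cells (NSCs) that had been derived from mouse embryonic stem (ES) cells and were grown with EGF and FGF2. There were 4 arrays of cells that received no irradiation (non-irradiated, ctrl replicates 1 to 4) and 4 of cells harvested on day 7 after X-rays of 10 Gy (irr, replicates 1 to 4), a dose that breaks both strands of DNA. The labels call the samples biological replicates but do not say whether each came from its own culture or passage, nor whether control cells were harvested after the same time in culture, so p-values measure only the spread between these samples. No other genotype, agent or age entered the comparison, and cultures derived from ES cells stand in for, but are not, the stem cells of a brain.

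The nuclear pore is a large ring-shaped assembly that spans both membranes of the nuclear envelope and is built from many copies of proteins called nucleoporins. Scaffold nucleoporins form the rings, membrane nucleoporins anchor them, and nucleoporins rich in phenylalanine-glycine repeats (FG nucleoporins) fill the channel through which receptors pass. Importins carry proteins in and exportins carry proteins and RNA out, and Ran, which is loaded with GTP inside the nucleus and hydrolyses it outside, sets the direction. In dividing cells the pores are taken apart at mitosis, rebuilt afterwards and doubled in number before the next division, and several nucleoporins also work at the kinetochore or spindle.

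All 42 genes passed the intensity filter (over 100 on at least 1 array). In irr NSCs 38 of them (90.5%) were lower, 1 (Kpna4) was higher and 3 (Tnpo1, Kpna1 and Kpna6) were not called, at an adjusted p under 0.05 with limma. Among all 11364 genes tested, 37.1% were called lower and 40.2% higher. A decrease of at least 2-fold was found for 9 members (21.4%), against 6.16% of all genes, and an increase of that size for none, against 8.88% of all genes. One of the 9, Xpo4, passed the filter through the non-irradiated arrays alone. The median log2 fold change (irr minus non-irradiated) was -0.56 over the members and 0.01 over all genes tested. The members were chosen with results of these data known, so these counts describe them and are not a test of the group.

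The shift was present on each irr array and was of moderate size. Set against the mean of the non-irradiated arrays, the median member lay at -0.50, -0.56, -0.58 and -0.54 on the log2 scale on irr arrays 1 to 4, and between -0.01 and 0.02 on the non-irradiated arrays. The median of all genes lay between -0.01 and 0.03 on the irr arrays. For 37 members (88.1%) all irr arrays were below all non-irradiated arrays, which held for 35.0% of all genes, and for 2 (Kpna4 and Kpna1) they were all above, which held for 38.4% of all genes. The groups overlapped for Nupl2, Tnpo1 and Kpna6.

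**Figure D1:**
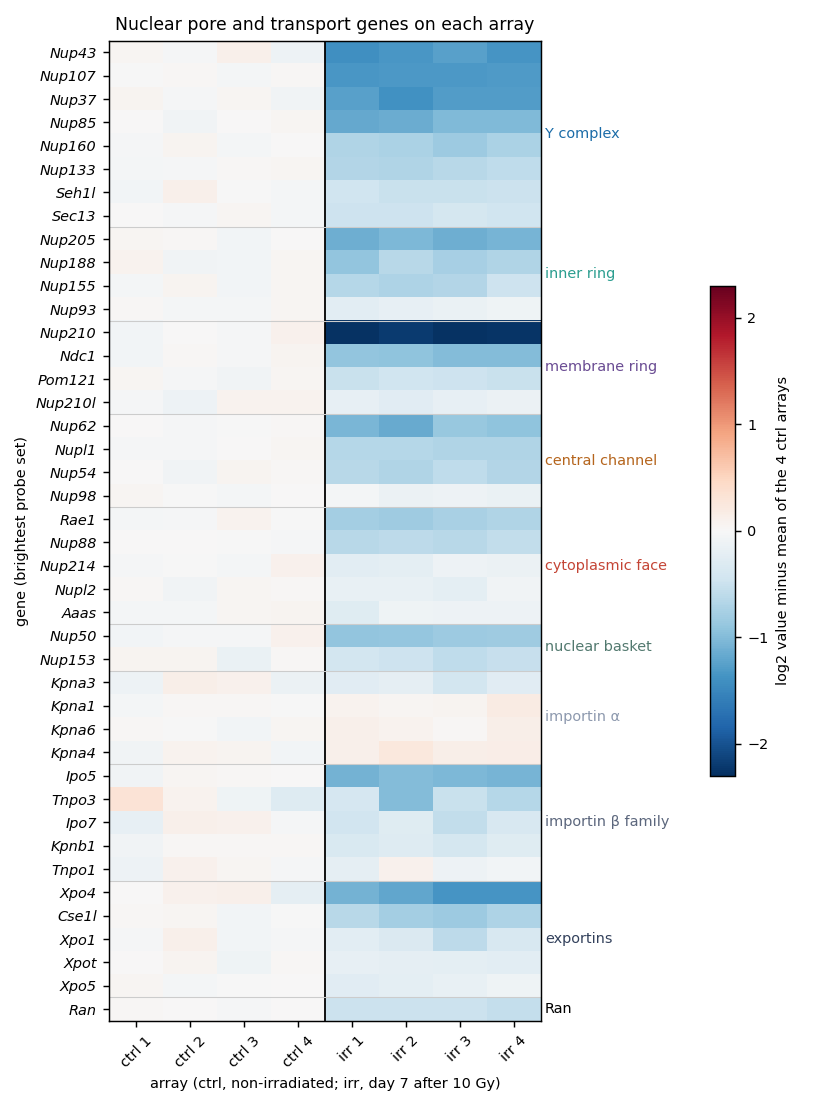
Log2 value of each of the 42 genes (lines, grouped by role) on each of the 8 arrays (columns), minus the mean of the 4 non-irradiated (ctrl) arrays of that gene. Blue is lower and red higher. The irr columns are blue for most genes, deepest for Nup210, and close to white or pale red for Kpna1, Kpna4, Kpna6, Tnpo1 and Nup98.

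The start regions of 5 members are shown because they mark the ends and the middle of this range: Nup210, Nup107 and Nup37 fell at least 2-fold, Ran fell less, and Kpna4 was the one member called higher. Each is the stretch from 250 bases before to 50 after the annotated start, 5′ to 3′ on the strand of the gene, from RefSeq on GRCm38.p6. The positions are chr6:91116777-91117076 (minus strand) for Nup210, chr10:117792656-117792955 (minus) for Nup107, chr10:88146742-88147041 (plus) for Nup37, chr5:129019906-129020205 (plus) for Ran and chr3:69127043-69127342 (minus) for Kpna4. Capitals mark matches, on either strand, to the letters of 7 motifs that are spelled out after the sequences.
Nup210: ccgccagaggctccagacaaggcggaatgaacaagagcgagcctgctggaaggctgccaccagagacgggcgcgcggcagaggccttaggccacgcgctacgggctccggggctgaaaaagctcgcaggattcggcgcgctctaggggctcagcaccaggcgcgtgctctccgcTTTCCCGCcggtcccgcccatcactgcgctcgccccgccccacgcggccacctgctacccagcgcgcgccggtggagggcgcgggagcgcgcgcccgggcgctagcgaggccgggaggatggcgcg
Nup107: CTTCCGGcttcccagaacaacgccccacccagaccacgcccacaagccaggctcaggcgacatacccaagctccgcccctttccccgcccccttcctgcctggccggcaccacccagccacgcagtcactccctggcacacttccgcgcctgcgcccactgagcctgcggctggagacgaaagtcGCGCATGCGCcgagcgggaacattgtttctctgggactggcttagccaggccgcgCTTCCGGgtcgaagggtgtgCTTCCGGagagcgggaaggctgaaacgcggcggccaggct
Nup37: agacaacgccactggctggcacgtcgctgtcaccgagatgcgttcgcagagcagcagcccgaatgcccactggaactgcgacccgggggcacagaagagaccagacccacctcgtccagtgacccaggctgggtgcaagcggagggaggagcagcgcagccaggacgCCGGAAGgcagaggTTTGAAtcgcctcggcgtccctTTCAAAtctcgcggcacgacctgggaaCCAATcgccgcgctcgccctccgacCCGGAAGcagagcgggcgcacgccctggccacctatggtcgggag
Ran: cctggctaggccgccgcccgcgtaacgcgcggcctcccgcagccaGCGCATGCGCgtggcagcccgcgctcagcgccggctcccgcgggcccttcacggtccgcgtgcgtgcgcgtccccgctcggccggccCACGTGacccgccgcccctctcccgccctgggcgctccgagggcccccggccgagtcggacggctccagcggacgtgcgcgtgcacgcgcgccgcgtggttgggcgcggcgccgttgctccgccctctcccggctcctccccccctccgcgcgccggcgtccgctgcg
Kpna4: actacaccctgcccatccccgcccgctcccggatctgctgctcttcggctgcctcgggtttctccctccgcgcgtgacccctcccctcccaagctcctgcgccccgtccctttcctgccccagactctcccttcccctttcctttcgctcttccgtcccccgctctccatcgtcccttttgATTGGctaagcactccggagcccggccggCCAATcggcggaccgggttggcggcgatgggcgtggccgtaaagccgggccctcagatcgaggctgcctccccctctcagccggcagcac

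The E2F-type letters searched were TTTGGCGC, TTTCCCGC, TTTGCCGC and TTTCGCGC, and the NRF1-type letters were GCATGCGC and GCGCATGC, which overlap each other. The CHR-type motif was read as TTTGAA, the YY1-type motif as AAGATGGC, the E-box as CACGTG and the ETS-type motif as CCGGAAG. The CCAAT box was read as its name spells it, and the GC box, which is not put in capitals, as GGGCGG. Nup210 holds a single E2F-type match that begins 76 bases before the start, and Nup107 holds the NRF1-type letters and 3 ETS-type matches. Nup37 holds a pair of CHR-type matches, a CCAAT box and a pair of ETS-type matches, Ran the NRF1-type letters and an E-box, and Kpna4 a pair of CCAAT boxes. Start regions were on hand for 33 of the 42 members (38 windows) and for 32851 windows in all. The E2F-type letters, those of factors that drive S-phase genes, were in 5.26% of the member windows (Nup210 and Ipo7) and in 2.26% of all windows, and the CHR-type letters, known from genes of mitosis, in 18.4% and 17.9%. NRF1-type letters were in 15.8% of member windows (Nup107, Nup50, Nup62, Nupl1, Ran and Xpo5) and 2.71% of all, ETS-type in 23.7% and 8.86%, YY1-type in 10.5% and 2.75%, E-boxes in 15.8% and 7.15%, CCAAT boxes in 42.1% and 37.4%, and GC boxes in 65.8% and 35.7%. The member windows were also richer in G and C, with a median of 64.8% against 52.7%. These shares are descriptions with no test, and binding of any factor was not measured.

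The Y complex is the scaffold subunit of the outer rings that also sits at kinetochores in mitosis. All 8 members grouped under it here were called lower, and the group need not hold every subunit of the complex. The median log2 fold change was -0.92, and 4 members passed 2-fold. Among all genes, the shares to set beside this and the group counts that follow were 37.1% lower and 6.16% lower at least 2-fold. The Y complex median was -1.07 with probe sets averaged per gene and -0.80 with arrays centred on reference genes. It was -0.70 over the 6 genes with a plain identifier, one without an added letter. Nup43, a small subunit with a propeller fold, read 10.41, 10.34, 10.48 and 10.25 (log2) on the non-irradiated arrays and 8.97, 9.03, 9.13 and 9.01 on the irr arrays. Nup107, for which the complex is named, read 10.83, 10.86, 10.80 and 10.86 in non-irradiated cells and 9.50, 9.52, 9.52 and 9.53 in irr cells. In both genes the groups were more than 1 log2 unit apart, with a log2 fold change of -1.34 (SE 0.06, adjusted p = 3.6e-08) for Nup43 and of -1.32 (SE 0.04, adjusted p = 2.4e-09) for Nup107. Nup37 (-1.30, SE 0.05), another propeller protein, and Nup85 (-1.09, SE 0.05), a scaffold subunit, also fell at least 2-fold. The other members of this group fell less, with log2 fold changes of -0.75 for Nup160, -0.65 for Nup133 and -0.50 for Seh1l. Sec13, which also coats vesicles that leave the endoplasmic reticulum, lay at -0.45.

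The inner ring, which lies at the middle of the pore against the membrane, was lower in 4 of 4 measured members, with a median of -0.69. Nup205, the large scaffold protein of this ring, read 11.42, 11.41, 11.31 and 11.38 in non-irradiated cells and 10.26, 10.34, 10.25 and 10.30 in irr cells, a log2 fold change of -1.09 (SE 0.05, adjusted p = 1.9e-08). Its close relative Nup188 read 9.33, 9.17, 9.19 and 9.29 against 8.35, 8.60, 8.49 and 8.56, a log2 fold change of -0.75 (SE 0.07). Neither gene's groups overlapped. Nup155, which ties the ring to the membrane, fell by 0.63, whereas Nup93, which links the ring to the channel, was called at a log2 fold change of only -0.17 (adjusted p = 0.011). The transmembrane nucleoporins held both the largest fall of all members and one of the smaller ones, with 4 of 4 lower and a median of -0.72.

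Nup210, a membrane-spanning nucleoporin known for a role in the differentiation of muscle and neural precursors, read 10.33, 10.40, 10.36 and 10.48 on the non-irradiated arrays. On the irr arrays it read 8.12, 8.19, 8.12 and 8.13, so that irr cells were left with 21.0% of the non-irradiated level. The log2 fold change was -2.25 (SE 0.05, adjusted p = 4.3e-10), which placed it 62nd from the lowest of the 11364 genes. Ndc1, which anchors the pore in the membrane, read 9.75, 9.85, 9.79 and 9.88 against 8.91, 8.90, 8.83 and 8.83 and lay just short of a 2-fold decrease (log2 fold change -0.95, SE 0.05). Pom121, the other anchor, fell by 0.49. Nup210l, a relative of Nup210 known from the testis, was close to the intensity filter in both groups (mean 6.95 in non-irradiated cells) with a log2 fold change of -0.20 (SE 0.06).

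**Figure D2:**
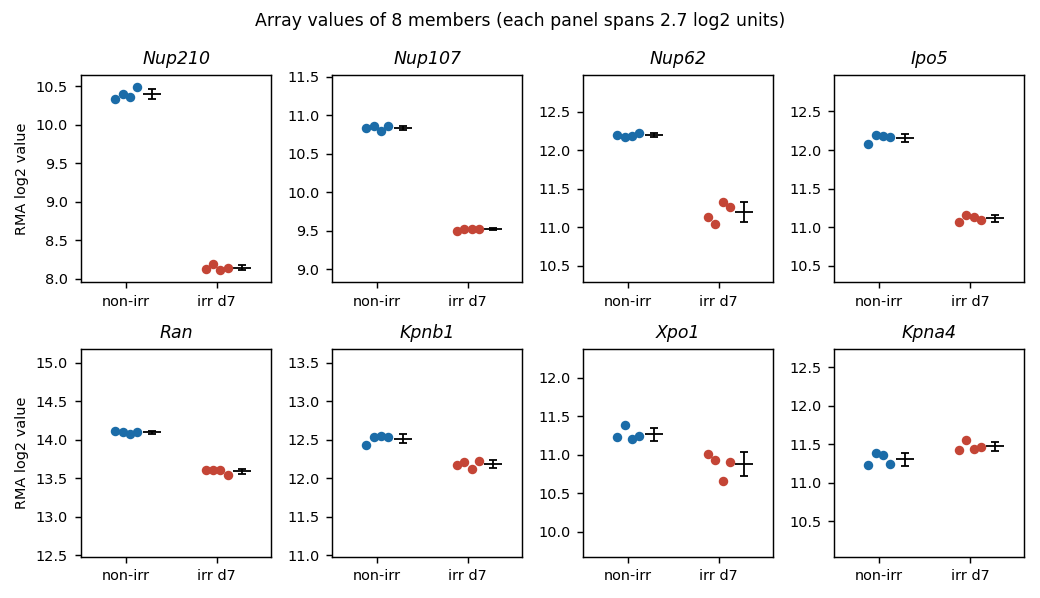
Deposited log2 values of 8 members on each array, blue for non-irradiated and red for irr day 7, with the mean and SD over 4 arrays (black). Every panel spans the same 2.7 log2 units. The groups lie apart in all 8 panels, by the most for Nup210, and Kpna4 is the one panel in which irr lies above.

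The FG nucleoporins of the central channel were lower in 4 of 4 members, with a median of -0.66. Nup62, the core of the channel trimer, read 12.20, 12.17, 12.18 and 12.22 in non-irradiated cells and 11.13, 11.04, 11.33 and 11.26 in irr cells. Its log2 fold change was -1.001 (SE 0.06, adjusted p = 3.8e-07), the smallest of the falls that reached 2-fold. Nupl1, its partner Nup58, read 11.32, 11.33, 11.36 and 11.39 against 10.69, 10.70, 10.65 and 10.66, a log2 fold change of -0.67 (SE 0.04). Nup54, the other partner, lay at -0.64. Nup98, which helps to form the permeability barrier, barely moved on its brightest probe set (log2 fold change -0.11, SE 0.04, adjusted p = 0.042). That value turned to 0.00906 when arrays were centred on reference genes. The call was also lost on leaving out non-irradiated array 1, 2 or 4 or irr array 2, 3 or 4 (adjusted p = 0.070 to 0.11). The second probe set of Nup98 was called lower at -0.31 (adjusted p = 0.00015), with the groups apart.

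On the cytoplasmic face 5 of 5 members were lower, with a median of -0.18 that became -0.61 when all probe sets of each gene were averaged and -0.06 with reference genes as the centre of each array. Rae1, a messenger RNA export and spindle factor, read 11.09, 11.11, 11.21 and 11.13 in non-irradiated cells and 10.35, 10.33, 10.39 and 10.45 in irr cells, a log2 fold change of -0.76 (SE 0.05). Nup88 read 11.35, 11.36, 11.34 and 11.32 against 10.71, 10.73, 10.71 and 10.77, a log2 fold change of -0.61 (SE 0.04). On their brightest probe sets the others changed less: Nup214, the partner of Nup88, lay at -0.18, though its second probe set lay at -1.19 (adjusted p = 0.0014), Nupl2 at -0.16 with overlapping groups, and Aaas, which is mutated in a syndrome of adrenal failure, at -0.15. The call of Aaas was lost without non-irradiated array 3 (adjusted p = 0.077) or 4 (0.087) or irr array 1 (0.080). In the nuclear basket, Nup50 read 10.57, 10.60, 10.60 and 10.73 against 9.72, 9.74, 9.79 and 9.81, and fell by 0.86. Nup153, the other basket protein measured, read 10.99, 11.00, 10.78 and 10.96 against 10.52, 10.47, 10.36 and 10.41, and fell by 0.50 (adjusted p = 5.1e-05). Over the pore proteins picked by the symbol rule, 27 of 27 genes were called lower at a median of -0.65, and 7 of them passed 2-fold. Ranbp2, a pore protein of the cytoplasmic filaments whose symbol is not in the rule, was not among them and was called higher (log2 fold change 0.75).

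Of the 14 transport receptors 10 were lower, 1 was higher and 3 were not called, with a median of -0.31. With all probe sets of each gene averaged the median was -0.53 for the receptors and -0.68 for the pore proteins, and on reference genes it was -0.19 and -0.53. Receptors and pore proteins were not tested against each other. The importin α adaptors, which hold the nuclear localisation signal of a cargo, were the one group with calls in both directions, and their median of 0.09 turned to -0.11 with probe sets averaged. Kpna3 read 10.30, 10.55, 10.52 and 10.29 in non-irradiated cells and 10.15, 10.21, 9.99 and 10.16 in irr cells, a log2 fold change of -0.29 (SE 0.08, adjusted p = 0.0071). Its other probe sets past the filter fell by more, at -0.67 (adjusted p = 0.00012) and -0.91 (adjusted p = 9.6e-07). Kpna4 read 11.23, 11.39, 11.36 and 11.24 against 11.43, 11.55, 11.44 and 11.46, a log2 fold change of 0.17 (SE 0.05, adjusted p = 0.018). The irr values of Kpna4 all lay above, with a gap narrower than the spread within either group, and the call was lost on centring arrays on their median (adjusted p = 0.057) and on leaving out non-irradiated array 1 (0.055), non-irradiated array 4 (0.052) or irr array 2 (0.054).

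Kpna1 read 9.71, 9.78, 9.78 and 9.75 in non-irradiated cells and 9.84, 9.79, 9.81 and 9.94 in irr cells (log2 fold change 0.09, SE 0.05, adjusted p = 0.11). Kpna6 read 10.50, 10.48, 10.42 and 10.52 against 10.59, 10.57, 10.52 and 10.61 (log2 fold change 0.09, SE 0.04, adjusted p = 0.088). Neither passed the threshold, but with all probe sets averaged Kpna6 was called lower at -0.15 (adjusted p = 0.028) and Kpna1 lay at -0.07. With arrays centred on reference genes both were called higher (adjusted p = 0.0042 for Kpna1 and 0.0015 for Kpna6), as was Kpna1 with plain identifiers only (0.21, adjusted p = 0.0038). Both adaptors carry signals of the classical type and differ in the cargo they prefer.

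In the importin β family 4 of 5 members were lower. Kpnb1, the importin β that works with all these adaptors, read 12.43, 12.54, 12.54 and 12.54 in non-irradiated cells and 12.17, 12.21, 12.11 and 12.23 in irr cells, a log2 fold change of -0.33 (SE 0.05, adjusted p = 0.00014). Ipo5, which imports ribosomal proteins and histones, read 12.08, 12.19, 12.19 and 12.16 against 11.07, 11.16, 11.13 and 11.09 and fell the most of this family, with a log2 fold change of -1.04 (SE 0.05, adjusted p = 2.7e-08). Tnpo3, the receptor of splicing factors rich in serine and arginine, read 10.86, 10.63, 10.44 and 10.24 against 10.16, 9.55, 10.03 and 9.89. Its spread between arrays was the widest of all members (SE 0.15), and its log2 fold change of -0.64 left the lowest non-irradiated array just above the highest irr array. Ipo7, another importer of ribosomal proteins, fell by 0.41. Tnpo1, which imports RNA-binding proteins, read 11.40, 11.63, 11.56 and 11.49 against 11.32, 11.61, 11.40 and 11.46, with overlapping groups (log2 fold change -0.07, SE 0.07, adjusted p = 0.41). It turned to 0.051 on reference genes and was called lower at -0.49 with all its probe sets averaged.

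All 5 exportins were lower, with a median of -0.38 that became -0.64 with all probe sets of each gene averaged. Xpo1, the main exportin of proteins with leucine-rich signals, read 11.23, 11.38, 11.20 and 11.24 in non-irradiated cells and 11.01, 10.93, 10.66 and 10.90 in irr cells, a log2 fold change of -0.38 (SE 0.08, adjusted p = 0.0013). Cse1l, which returns importin α to the cytoplasm, read 11.86, 11.88, 11.76 and 11.82 against 11.19, 11.06, 10.99 and 11.12, a log2 fold change of -0.74 (SE 0.06). The groups of both genes stayed apart. Xpo4, which exports Smad3 among other proteins, read 7.34, 7.43, 7.46 and 7.13 against 6.26, 6.15, 5.99 and 5.98, and since all its irr arrays lay under an intensity of 100 it was at least 1.62-fold lower. It passed the filter through the non-irradiated arrays alone and is counted among the 9 members down 2-fold by a measured difference of -1.25, so that 8 of 41 members remain without it. Xpot, the exportin of transfer RNA, and Xpo5, that of microRNA precursors, lay at -0.21 and -0.19. The other 2 probe sets of Xpot past the filter were not called (-0.08 and -0.04), and the second one of Xpo5 lay at -0.58.

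Ran itself read 14.12, 14.10, 14.07 and 14.10 on the non-irradiated arrays and 13.60, 13.61, 13.61 and 13.55 on the irr arrays. The groups were wide apart against their SDs of 0.02 and 0.03, and the log2 fold change was -0.51 (SE 0.04, adjusted p = 1.7e-06), so that irr cells kept 70.4% of the non-irradiated level. Most probe sets of Ran carry an identifier for probes that can also bind other transcripts. So do the brightest probe sets of other members, among them Nup43, Nup107, Nup54 and Nup62. The Ran probe set with a plain identifier fell by 0.39 (SE 0.05, adjusted p = 7.2e-05).

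**Figure D3:**
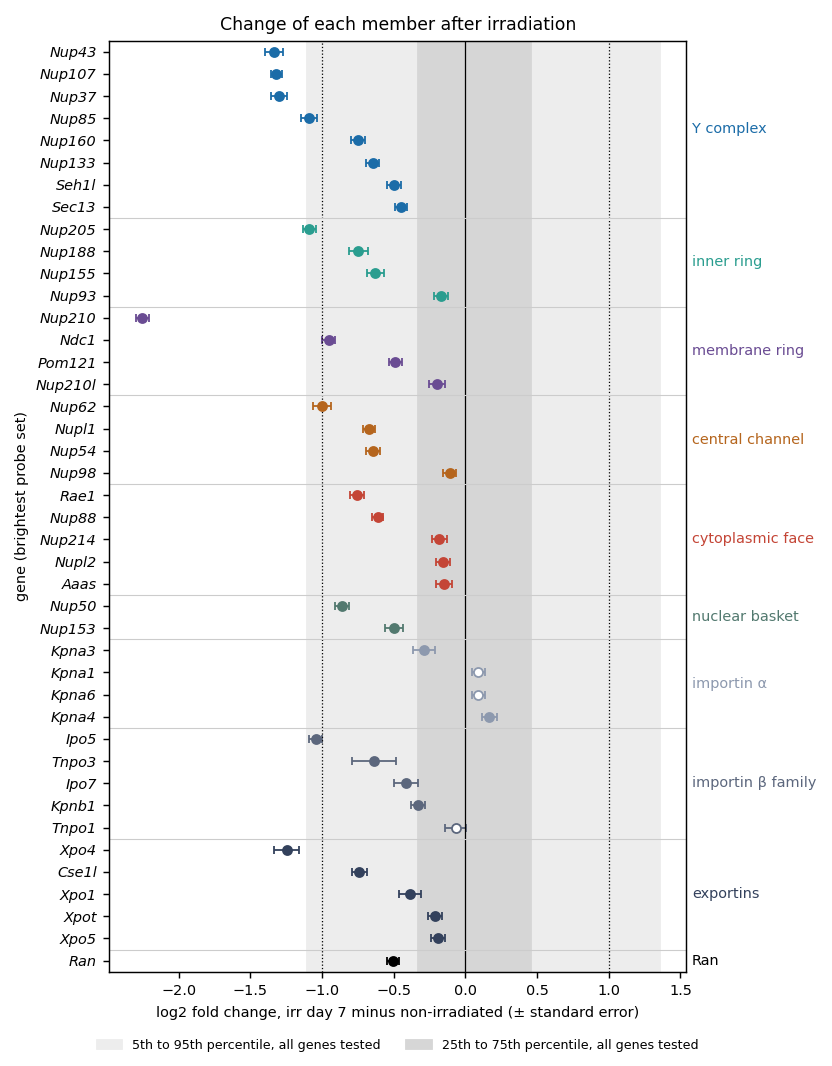
Difference of each member on the log2 scale (irr less non-irradiated, ± standard error of the limma fit, 4 arrays a group), grouped and coloured by role, with hollow points for genes not called and dotted lines at 2-fold. Grey bands give the middle of all 11364 genes tested. Most points lie left of the darker band, Nup210 far left of both, while the importin α adaptors sit inside it.

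Different probe sets of the same gene can read different parts of its transcripts and serve as a further look at each member. Their positions were not on hand, and they are not independent measures. Of the 116 probe sets, 95 passed the filter, and 85 of these (89.5%) were called lower, 2 higher and 8 not called. Over all 21919 probe sets tested, 37.1% were called lower and 38.0% higher. Of the 26 members with several probe sets past the filter, 20 had every one of them called lower. Kpna1 was the only member with calls both ways, with 1 probe set called higher at 0.21 (SE 0.05) and 2 called lower at -0.23 (SE 0.06, adjusted p = 0.0057) and -0.32 (SE 0.09).

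The size of a fall depended on the probe set read. The second probe set of Tnpo1 fell by 0.91 (SE 0.05, adjusted p = 1.8e-07) while the brightest one was not called. The second one of Kpna6 lay at -0.38 and that of Xpo1 at -0.90, against -0.38 for the brightest of Xpo1. The other probe sets of Kpnb1 lay between -0.58 and -0.73, against -0.33. Seh1l had the widest range of its 6 probe sets, from -0.27 to -1.56. For Nup155 it was the second probe set that was not called (-0.06, adjusted p = 0.27). In 19 of the 26 members (73.1%) the brightest probe set lay above the mean of the others, which was so for 58.0% of all 5110 genes with several probe sets. The brightest probe set was picked on the mean of all arrays, irr included, so the choice itself favours probe sets that fall less.

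**Figure D4:**
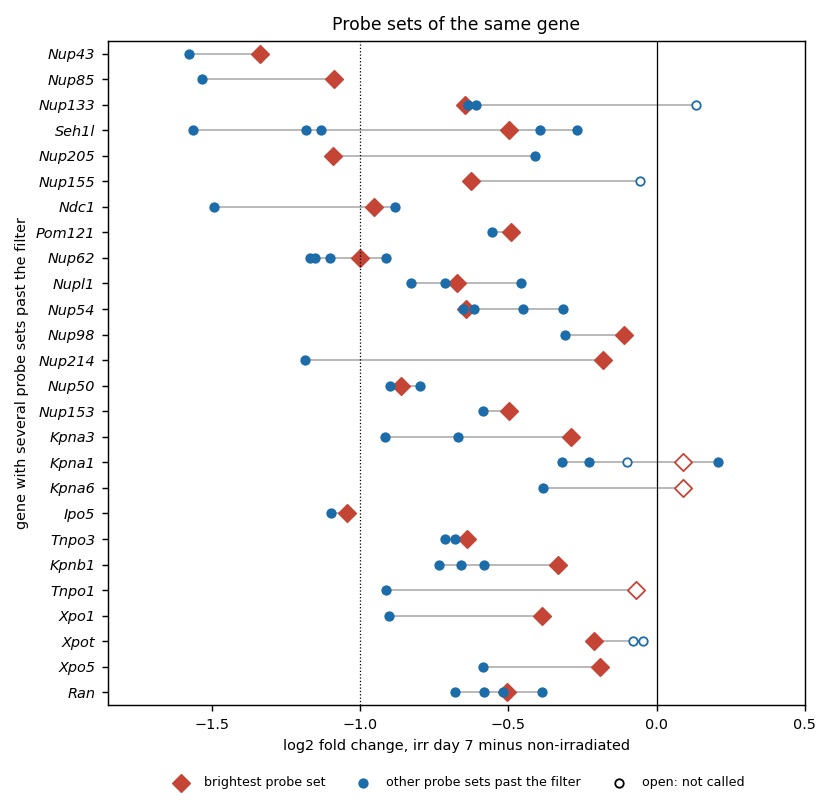
Log2 difference (irr less non-irradiated) of every probe set past the filter for the 26 members with several, with the brightest as a red diamond, the others as blue points and hollow symbols for those not called. The widest ranges belong to Seh1l, Nup214 and Tnpo1, and Kpna1 alone has called points on both sides of 0.

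Other genes of nuclear transport were read from a list of the Ran cycle, further receptors, messenger RNA export and pore assembly. Of 37 on the array 35 passed the filter, and 20 were lower, 4 higher and 11 not called, with a median log2 fold change of -0.26 and 7 down at least 2-fold. The shares over all genes were those given before (37.1% lower, 40.2% higher and 6.16% lower at least 2-fold). Kpna2, the importin α adaptor common in proliferating cells and not among the members, read 13.39, 13.44, 13.47 and 13.51 in non-irradiated cells and 11.88, 11.79, 11.83 and 11.82 in irr cells, a log2 fold change of -1.62 (SE 0.04, adjusted p = 1.5e-09). Its fall was not tested against the values of Kpna1, Kpna4 and Kpna6, none of which was called lower.

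In the Ran cycle 5 of 6 genes were lower. Rcc1, the chromatin-bound factor that loads Ran with GTP, had a log2 fold change of -1.48, Rangap1, which triggers hydrolysis in the cytoplasm, of -1.13, and Rangrf, which frees Ran of nucleotide, of -1.40. These falls are larger than the -0.51 of Ran, a difference between genes that was not tested. Ranbp2, the large pore protein of the cytoplasmic filaments, went the other way and read 9.80, 10.24, 10.28 and 10.05 against 10.87, 10.97, 10.64 and 10.89 (log2 fold change 0.75, SE 0.11, adjusted p = 0.00017), with a second probe set at 0.47. It was named after its values were seen, as were the other genes called higher: Ranbp6 (0.55), Tnpo2 (0.46, with a dim probe set at -0.53) and Ipo13 (0.20).

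Of 14 messenger RNA export genes 9 were lower and none higher. Nxt1, a partner of the main export receptor, had a log2 fold change of -1.22, Alyref, an adaptor that loads it, of -1.08, and Eny2, of the export complex docked at the pore, of -1.01. A second probe set of Alyref (0.05) and the third-brightest of Eny2 (0.058) were not called, and a dim one of Eny2 lay at -0.66 (adjusted p = 0.0081). Of the further receptors 4 were lower, 3 higher and 4 not called among 11, and of the assembly genes 2 were lower and 2 not called, against 37.1% called lower among all genes.

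**Figure D5:**
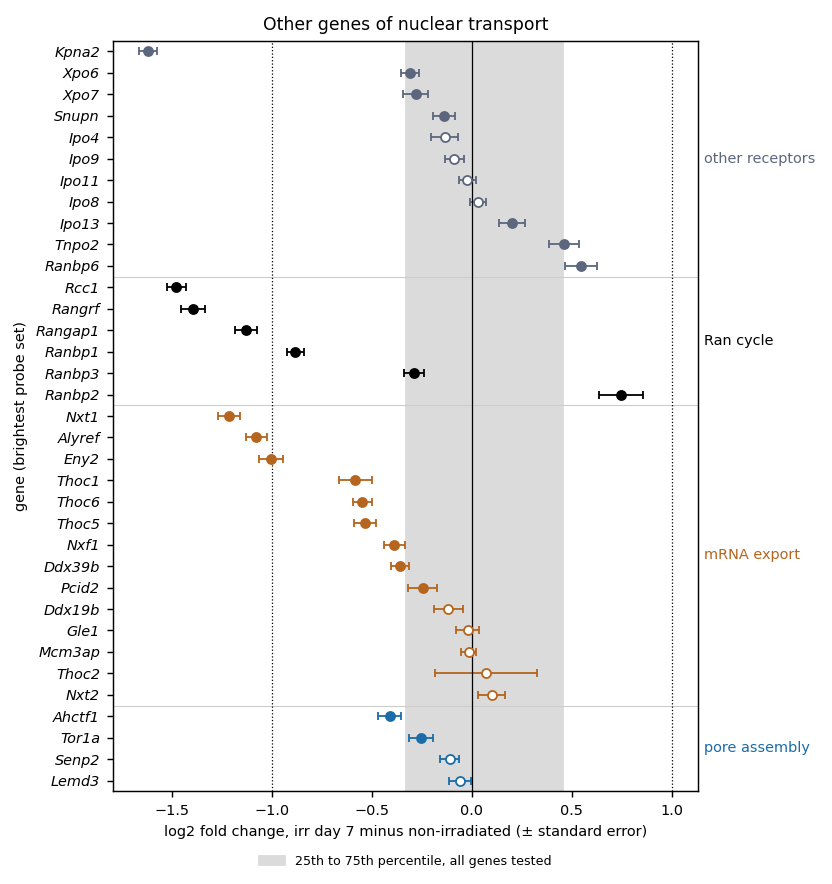
Log2 difference (irr less non-irradiated, ± standard error, 4 arrays a group) of 35 other nuclear transport genes, by function, with hollow points for genes not called, dotted lines at 2-fold and a grey band for the middle of all genes tested. Kpna2, Rcc1 and Rangrf lie furthest left, and Ranbp2 lies furthest right.

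Several other measures moved between the groups along with these genes. A list of proliferation genes was lower in 9 of 9 genes at a median of -1.87, and 8 of them passed 2-fold, against 37.1% and 6.16% of all genes. Its summed level (linear scale) was 52479 to 53444 on the non-irradiated arrays and 19709 to 21049 on the irr arrays. Astrocyte markers summed to 8484 to 9036 in non-irradiated and 30040 to 32342 in irr cells, with 7 of 8 called higher and 1 lower. Among all genes 40.2% were called higher and 37.1% lower, shares to set beside the calls of every marker list here. Apoe rose from a mean of 9.29 to 13.94 (log2 fold change 4.64), so it weighs heavily in the irr sum. The marker called lower was Gfap (log2 fold change -0.18, adjusted p = 0.019), which was near the filter in both groups, and its groups overlapped. The NSC markers summed to 53267 to 55273 and 58194 to 61771, with 3 of 8 higher (Sox2, Vim and Fabp7), 2 lower (Pax6 at -0.54 and Msi1 at -0.17) and 3 not called. Each marker was read on its brightest probe set alone. By quantitative PCR, another measure of RNA, the authors report GFAP higher and Nestin, SOX2 and PAX6 lower in irradiated NSCs. The pluripotency genes Pou5f1, Nanog and Zfp42 stayed below the filter on every array. Of 6 microglial markers 5 were below the filter, as were 1 of 6 neuronal, 2 of 3 endothelial, 2 of 4 oligodendrocyte and 3 of 4 mesenchymal ones. Of the rest, Acta2 fell by 1.75 on the log2 scale (mesenchymal sum 774 to 829 and 333 to 396) and Kdr fell by 0.40. Of the 5 neuronal markers past the filter 3 were called lower (Tubb3 at -0.67, Dcx at -0.27 and Rbfox3 at -0.24). Map2 was not called, and Syt1, below the filter on all non-irradiated arrays, was called higher at 1.04. The microglial and oligodendrocyte markers past the filter were not called. The gap between the 3′ and the 5′ probe sets of control transcripts, which widens with shorter RNA or cDNA, rose from 0.26 to 0.51 for Actb, from 0.35 to 0.85 for Tfrc and from 0.52 to 1.06 for Pcx (exact permutation test, two-sided, p = 0.029 each, the smallest possible with 4 against 4, adjusted p = 0.038), but not for Gapdh (-0.08 to -0.06, p = 0.71). The part of these measures in the fall of the nuclear pore genes was not tested, and fewer cells of a type and less RNA per cell cannot be told apart in such samples. Arrays correlated at 0.996 to 0.998 within groups and at 0.972 to 0.976 between them, and no array was left out.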

How the data were processed

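RNA of 4 non-irradiated and 4 irr samples was hybridised to Affymetrix GeneChip mouse genome arrays. Per the labels and methods, GCOS gave the intensities and detection calls and RMA the normalized values, and the log2 values used here are those the authors deposited. The methods name the version of R in which RMA was run, but give no version of GCOS or of the RMA software. RMA sets all arrays to the same distribution, so only changes relative to the other transcripts are seen. Depth does not apply to arrays, and the precision is limited by 4 arrays a group.

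Probe sets were named from the platform annotation, with symbols updated by Entrez gene number for 34754 of 45101 (34958 carry 1 symbol, 932 several and 9211 none). The 64 control probe sets were left out. Probe sets over an intensity of 100 on at least 1 array were kept (21919), after the methods, but without their condition on detection calls. The test was a two-sided moderated one (limma 3.58.1, R 4.3.3) with the group as the only term of the linear model, Benjamini-Hochberg adjustment over everything kept and calls at an adjusted p under 0.05. The script was tested on simulated data. Where all irr arrays lay under the filter, the fold is that of the non-irradiated mean over an intensity of 100.

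The members, role groups, other lists and tests were chosen with earlier results of these data known, and the motif letters after the files had been seen. Array values are given for Ran, Xpo1 and Kpnb1, for the 2 members of each role group with the largest change, for members that rose or were not called, and for those of other transport genes that are discussed at length. From the list of other transport genes, those changed at least 2-fold were named. The platform calls Nup58 Nupl1 and Nup42 Nupl2, and Nup35 and Nup62cl have no probe set of their own here. Alternatives were other filters, scalings, limma settings, a replicate block, other rules for probe sets, a test against a 1.5-fold change and leaving out arrays. No scan date or batch was given in the labels. Replicate numbers were not treated as pairs, since the deviations of same-numbered arrays correlated at 0.04, 0.38, -0.21 and 0.51. Figures were drawn with matplotlib 3.10.9.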

Additional observations from a re-analysis of the deposited data

Results flagged for a closer look

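In 4 of 98 groups of 4 arrays (the 42 members and 7 other transport genes that fell at least 2-fold, in each group), 1 array stood apart from the other 3 by more than Dixon's test allows at the 95% level. Chance gives this in about 1 group of 20. Ran read 13.5466 on irr array 4 and 13.6041 to 13.6126 on the other irr arrays. Kpnb1 read 12.4251 on non-irradiated array 1 and 12.5370 to 12.5443 on the others. Nupl2 read 7.28665 on non-irradiated array 2 and 7.37933 to 7.39712 on the others. Aaas read 9.84396 on irr array 1 and 10.0093 to 10.0307 on the others. The 4 values lie on 4 different arrays.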

How the results depend on the processing

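The median log2 fold change of the members, -0.56, stayed negative in every setting run. It was -0.61 with an intensity over 200 (39 members left), -0.61 with arrays centred on their median, -0.44 with arrays centred on 7 reference genes, -0.62 with probe sets averaged per gene and -0.47 with plain identifiers only (38 members), and -0.58 to -0.52 when single arrays were left out. Centring on reference genes moved the median of all probe sets by 0.12 and the share of higher calls among those of at least 2-fold from 58.6% to 69.7%, against 54.2% with median centring and 55.3% with a further quantile normalization. These reference genes are no fixed standard, since 3 of the 7 were themselves called lower (Pgk1 at -0.66, Hprt at -0.38 and Actb at -0.13). Another 2 were called higher (Gusb at 0.22 and Sdha at 0.20), and Tbp and Ywhaz were not called. Hprt lay under an intensity of 100 on 3 non-irradiated and 4 irr arrays. The 38 members called lower were 29 on reference genes, 14 in a test against a 1.5-fold change and 34 to 40 under the other alternatives, and the 9 at least 2-fold lower were 5 on reference genes. The single member called higher became 0 with median centring, 3 on reference genes, 2 with plain identifiers and 0 in the test against a 1.5-fold change, and 0 to 1 when single arrays were left out. Single arrays decided the calls of Kpna4, Nup98 and Aaas, as given with their values, and Kpna3 lost its call without irr arrays 3 and 4 together (adjusted p = 0.052). Of the other transport genes 20 were lower and 4 higher, and these became 8 and 0 in the test against a 1.5-fold change, with 7 higher on reference genes. On reference genes signs turned for Nup98 (0.00906), Tnpo1 (0.051), Mcm3ap (0.10), Gle1 (0.0978), Ipo11 (0.0975), Lemd3 (0.0611), Ipo9 (0.0321), Senp2 (0.00825) and Ddx19b (0.00204), with median centring for Ipo8 (-0.0166), with probe sets averaged per gene for Kpna1 (-0.0693), Kpna6 (-0.15) and Ipo8 (-0.32), and with plain identifiers for Eny2 (0.058). Without single arrays they turned for Gle1 (range -0.0609 to 0.0146) and Thoc2 (range -0.14 to 0.22). Of all these, Nup98 and Eny2 were called as deposited. The cause of these changes was not tested. With the replicate block, 37 members were called lower, 1 higher and 9 at least 2-fold lower, the median was -0.56, and the one call to change among members was that of Nup98 (adjusted p = 0.052). Whether the numbers pair the arrays is not known, and 4 of 8 arrays correlated best with their own number. Over the members, 799 of 833 values kept direction and call, and 29 members did so in every alternative that gave them a fold change. Not every member had a value in all 20 alternatives that gave fold changes.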
